A study of Mus musculus with 44 samples.

Results

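Wdfy1, Lrmda and Hist1h4n are 3 of the 54146 genes in the count table. They were chosen by symbol because, in the comparisons among the edited mice, APOE44 and the Apoe knock-out lay together and away from APOE33. The difference between those groups is therefore the reason the genes are here, and it is described below without a test. The series measured RNA from cultured primary astrocytes and microglia of mice, 44 libraries in all, in 4 Apoe genotypes: Apoe WT (wild type, the mouse gene intact), APOE33 and APOE44 (human APOE3 or APOE4 alleles by their labels), and Apoe KO (knock-out). Each cell type had 6 libraries per genotype, except 4 for KO, all from cells purified and grown without treatment in media made for human glia. The sources used here give neither strain nor age, so the Apoe genotype and other DNA that may differ between the mouse lines cannot be told apart.

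Wdfy1 encodes a protein with WD repeats and a FYVE domain. The FYVE domain binds the lipid phosphatidylinositol 3-phosphate on early endosomes, and the protein is known as an adaptor in signalling from the Toll-like receptors TLR3 and TLR4 through TRIF. Lrmda encodes a leucine-rich repeat protein known for its part in melanocyte differentiation, and its human counterpart is mutated in a form of albinism. Hist1h4n is one of many gene copies for histone H4, a core protein of the nucleosome whose genes are transcribed mainly when DNA is replicated.

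Wdfy1 (ENSMUSG00000073643.11) lies on chromosome 1 at 79702262 to 79776143, minus strand, in the mouse build GRCm38. Lrmda (ENSMUSG00000063458.13) lies on chromosome 14 at 22019712 to 23056085, plus strand, and spans 1036374 bases. Hist1h4n (ENSMUSG00000069305.3) lies on chromosome 13 at 21831767 to 21832196, minus strand, and is 430 bases long. None of the 3 shares a chromosome with Apoe, which is on chromosome 7. Promoters are shown for Lrmda and Hist1h4n only, since the promoter set used here holds none for Wdfy1. The Hist1h4n promoter has a near copy that matters below. The Lrmda promoter, 300 bases from RefSeq (GRCm38.p6), is chr14:22019462-22019761 on the plus strand. It holds 1 CACGTG, the E-box letters, which are in capitals.
Lrmda promoter: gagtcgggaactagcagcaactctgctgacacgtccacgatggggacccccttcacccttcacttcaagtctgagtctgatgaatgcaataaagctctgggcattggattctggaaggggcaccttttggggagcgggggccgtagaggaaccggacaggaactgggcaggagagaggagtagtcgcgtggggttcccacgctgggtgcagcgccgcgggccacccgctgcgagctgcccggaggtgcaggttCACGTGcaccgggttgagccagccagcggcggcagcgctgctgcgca
The Hist1h4n promoter from the same source, under the symbol H4c18, is chr13:21832148-21832447 on the minus strand. It holds 1 TATAAA, in capitals.
Hist1h4n promoter: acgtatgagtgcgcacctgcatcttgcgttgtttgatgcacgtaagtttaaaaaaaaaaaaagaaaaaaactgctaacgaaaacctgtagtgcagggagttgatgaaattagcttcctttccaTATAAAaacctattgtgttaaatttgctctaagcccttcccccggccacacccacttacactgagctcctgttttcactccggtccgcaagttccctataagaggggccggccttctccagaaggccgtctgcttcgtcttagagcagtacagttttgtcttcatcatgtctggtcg
Searched on both strands, CACGTG was present in 7.2% and TATAAA in 13.6% of 32851 mouse promoters of this length.

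The mouse Apoe gene checked the labels, except for APOE33 against APOE44. It stood at 7185 ± 632 CPM in WT astrocytes and at 43210 ± 4159 CPM in WT microglia (CPM, a gene's count scaled to a library total of 1e6; mean ± SD, n = 6 each). In KO it fell to 13.4 ± 1.75 CPM in astrocytes and 12.4 ± 7.34 CPM in microglia (n = 4 each). In APOE33 and APOE44 it lay between 22.7 and 66.7 CPM in every library, and the ranges of APOE33 and APOE44 overlap in each cell type. The cultures matched their labels by markers: 8 astrocyte genes summed to 7234 to 12080 CPM in astrocyte libraries and to 16.3 to 59.2 CPM in microglia libraries. Library totals ran from 83.2 M to 143.2 M counts (M, units of 1e6). All 12 WT libraries carry batch tag 2 and the other 32 carry batch tag 1, so WT and batch cannot be told apart. No label says that replicates came from separate animals, so p-values measure only the spread between these libraries. In bulk RNA, fewer cells of a type and less RNA per cell cannot be told apart.

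Wdfy1 was at its full level in WT and APOE33 and at 19.7% to 26.5% of the WT level in APOE44 and KO, in both cell types. In astrocytes, WT libraries ran from 72.9 to 79.5 CPM (median 75.9) and APOE33 libraries from 70.5 to 80.7 CPM (median 73.0). APOE44 astrocytes ran from 14.1 to 16.5 CPM (median 14.9), and the KO libraries gave 18.2, 18.2, 17.6 and 18.6 CPM. The 2 high groups overlap each other, and neither comes near the 2 low ones. In microglia, WT ran from 53.8 to 57.6 CPM (median 55.1) and APOE33 from 53.7 to 58.7 CPM (median 56.6). APOE44 microglia ran from 13.5 to 16.02 CPM (median 14.7), and the KO libraries gave 11.9, 12.4, 13.2 and 12.9 CPM. The same split therefore held in microglia, with each group tight: the coefficient of variation was 2.29% to 6.05% over the 8 groups.

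**Figure D1:**
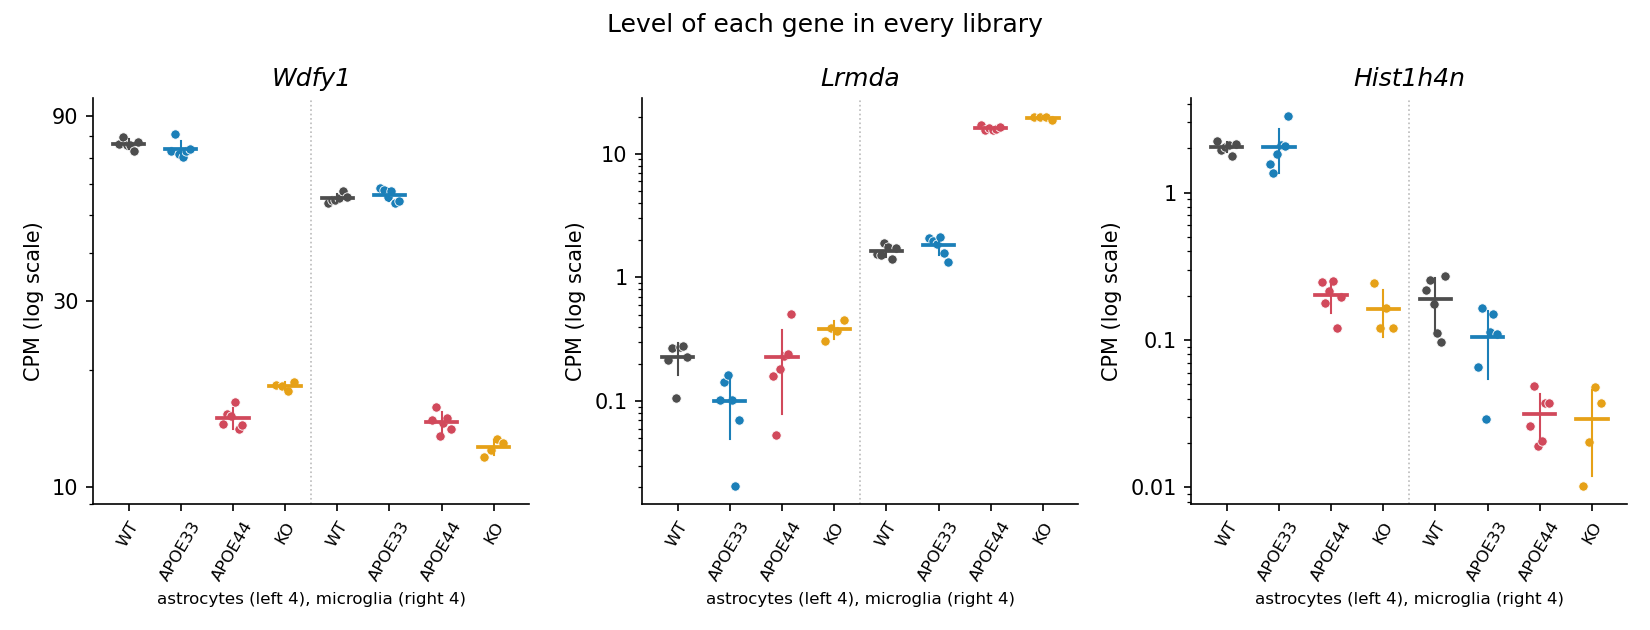
CPM on a log axis for Wdfy1, Lrmda and Hist1h4n, with 1 point per library, a horizontal bar for the group mean and a vertical bar for ± 1 SD (n = 6, KO n = 4), astrocytes left and microglia right of the dotted line. Wdfy1 sits between 53.7 and 80.7 CPM in WT and APOE33 and between 11.9 and 18.6 CPM in APOE44 and KO, while Lrmda in microglia goes the other way.

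Set against WT, APOE33 was not called different for Wdfy1, with narrow intervals. The log2 difference was -0.0094 in astrocytes (95% interval -0.085 to 0.066, edgeR adjusted p = 0.862) and 0.024 in microglia (-0.056 to 0.104, adjusted p = 0.645). APOE44 was lower than WT by 4.94-fold in astrocytes (log2 -2.30, SE 0.038, edgeR adjusted p = 1.05e-21) and by 3.78-fold in microglia (log2 -1.92, SE 0.040, adjusted p = 4.36e-19). KO was lower than WT by 4.11-fold in astrocytes (log2 -2.04, SE 0.044, edgeR adjusted p = 2.48e-19) and by 4.18-fold in microglia (log2 -2.06, SE 0.047, adjusted p = 3.24e-18). In microglia Wdfy1 had the smallest p of 18079 genes in both of these comparisons. These APOE44 and KO libraries also served to choose the genes, so only the WT side is new to the choice. Many genes separate WT from the rest: 41.7% of 21287 genes were called in APOE44 against WT astrocytes and 38.3% in KO against WT astrocytes, and 45.4% and 42.4% of 18079 in microglia. With a log2 difference of 1 or more as well, the shares were 7.86%, 9.93%, 12.3% and 10.8%.

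The differences that chose Wdfy1 were of the same size. The log2 difference from APOE33 was -2.29 for APOE44 and -2.03 for KO in astrocytes, and -1.94 and -2.08 in microglia. KO and APOE44 themselves stood 0.26 apart in astrocytes, with KO higher and no overlap of libraries, and -0.14 apart in microglia, with KO lower and again no overlap. Over the whole table, 48 of 20481 genes in astrocytes and 50 of 17143 in microglia were called the same way in APOE44 and in KO against the APOE33 libraries that both share. The members are 2 of those 48 (Wdfy1 and Hist1h4n) and 2 of those 50 (Wdfy1 and Lrmda), and 10 genes met the rule in both cell types, Wdfy1 among them. The share called was 0.703% in APOE44 against APOE33 astrocytes and 0.84% in microglia, and 17.2% and 22.7% for KO against APOE33, and nothing is read from these since the rule used them.

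The drop of Wdfy1 was smaller in APOE44 microglia than in APOE44 astrocytes. Relative to WT, the difference between the cell types was 0.35 on the log2 scale (95% interval 0.25 to 0.45, edgeR adjusted p = 1.73e-06), where 27.2% of 22498 genes were called. For KO the difference was -0.067 (-0.184 to 0.050, adjusted p = 0.46; 23.8% called), and for APOE33 it was -0.0011 (-0.104 to 0.102, adjusted p = 1; 25.2% called). Whether the level itself was higher in microglia or in astrocytes of 1 genotype depended on the scaling. By the TMM scaling used for the tests, microglia minus astrocytes was 0.079 in WT (edgeR adjusted p = 0.0724), 0.078 in APOE33 (0.0573), 0.43 in APOE44 (3.6e-12) and 0.012 in KO (0.847). By library totals alone, the scale of the CPM values, the same differences were -0.48, -0.40, -0.045 and -0.54, so the direction turns. TMM moved all genes up in microglia by 0.47 to 0.56 relative to library totals in these 4 comparisons, of which 82.7%, 82.8%, 81.7% and 76.6% of genes were called.

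The genes next to Wdfy1 were compared between APOE44 and APOE33 as well. Mrpl44, a mitochondrial ribosomal protein gene on the opposite strand, overlaps the start of Wdfy1, at 79776018 to 79781445, and the strand setting of the counting is not given in the sources used here. It held 19.1 ± 0.953 CPM in APOE44 and 20.02 ± 0.983 CPM in APOE33 astrocytes (log2 difference -0.068, SE 0.051, edgeR adjusted p = 0.726) and differed by 0.023 in microglia (SE 0.050, adjusted p = 0.894). Ap1s3, an adaptor complex subunit gene 30.3 kb to one side, differed by -0.60 in astrocytes (SE 0.23, edgeR adjusted p = 0.373) and by -0.064 in microglia (SE 0.20, adjusted p = 0.932). Serpine2, a protease inhibitor gene 18.1 kb to the other side, differed by 0.33 in astrocytes (SE 0.12, edgeR adjusted p = 0.343) and by 0.24 in microglia (SE 0.23, adjusted p = 0.724). Within 1 Mb, edgeR called 0 of 12 tested genes in APOE44 against APOE33 astrocytes (2 at an unadjusted p under 0.05), beside 0.703% of all genes. In microglia it called 0 of 10 (0 unadjusted), beside 0.84%. DESeq2 also called 0 in each, where it called 315 and 385 genes in all, against 144 and 144 by edgeR. No share of all genes at an unadjusted p under 0.05 was computed, so such counts have no background here or below. Against WT, where Wdfy1 itself was tested, many of these neighbours were called. In APOE44 they were 9 of 12 in astrocytes (75.0%, 7 of them lower) and 8 of 11 in microglia (72.7%, 6 lower), beside 41.7% and 45.4% of all genes. In KO they were 6 of 12 in astrocytes (50.0%, 4 lower) and 9 of 11 in microglia (81.8%, 8 lower), beside 38.3% and 42.4%. In APOE33, where Wdfy1 was not called, they were 7 of 12 (58.3%, 6 lower) and 7 of 11 (63.6%, 6 lower), beside 39% and 44.8%. For KO against APOE33, edgeR called 1 of 12 in astrocytes (8.33%, beside 17.2% of all genes; 2 by DESeq2), Scg2 (a secretory granule protein gene, log2 0.72, SE 0.18, edgeR adjusted p = 0.0119). In microglia it called 2 of 10 (beside 22.7% of all genes), Acsl3 (a fatty acid activating enzyme gene, log2 0.88, SE 0.084, adjusted p = 5.67e-06) and Dock10 (log2 -0.40, SE 0.067, adjusted p = 0.000502). In the wider window of 5 Mb, the shares called against WT were near those of all genes. In astrocytes and microglia they were 46.0% and 39.6% for APOE44, 36.5% and 43.4% for KO, and 39.7% and 47.2% for APOE33.

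**Figure D2:**
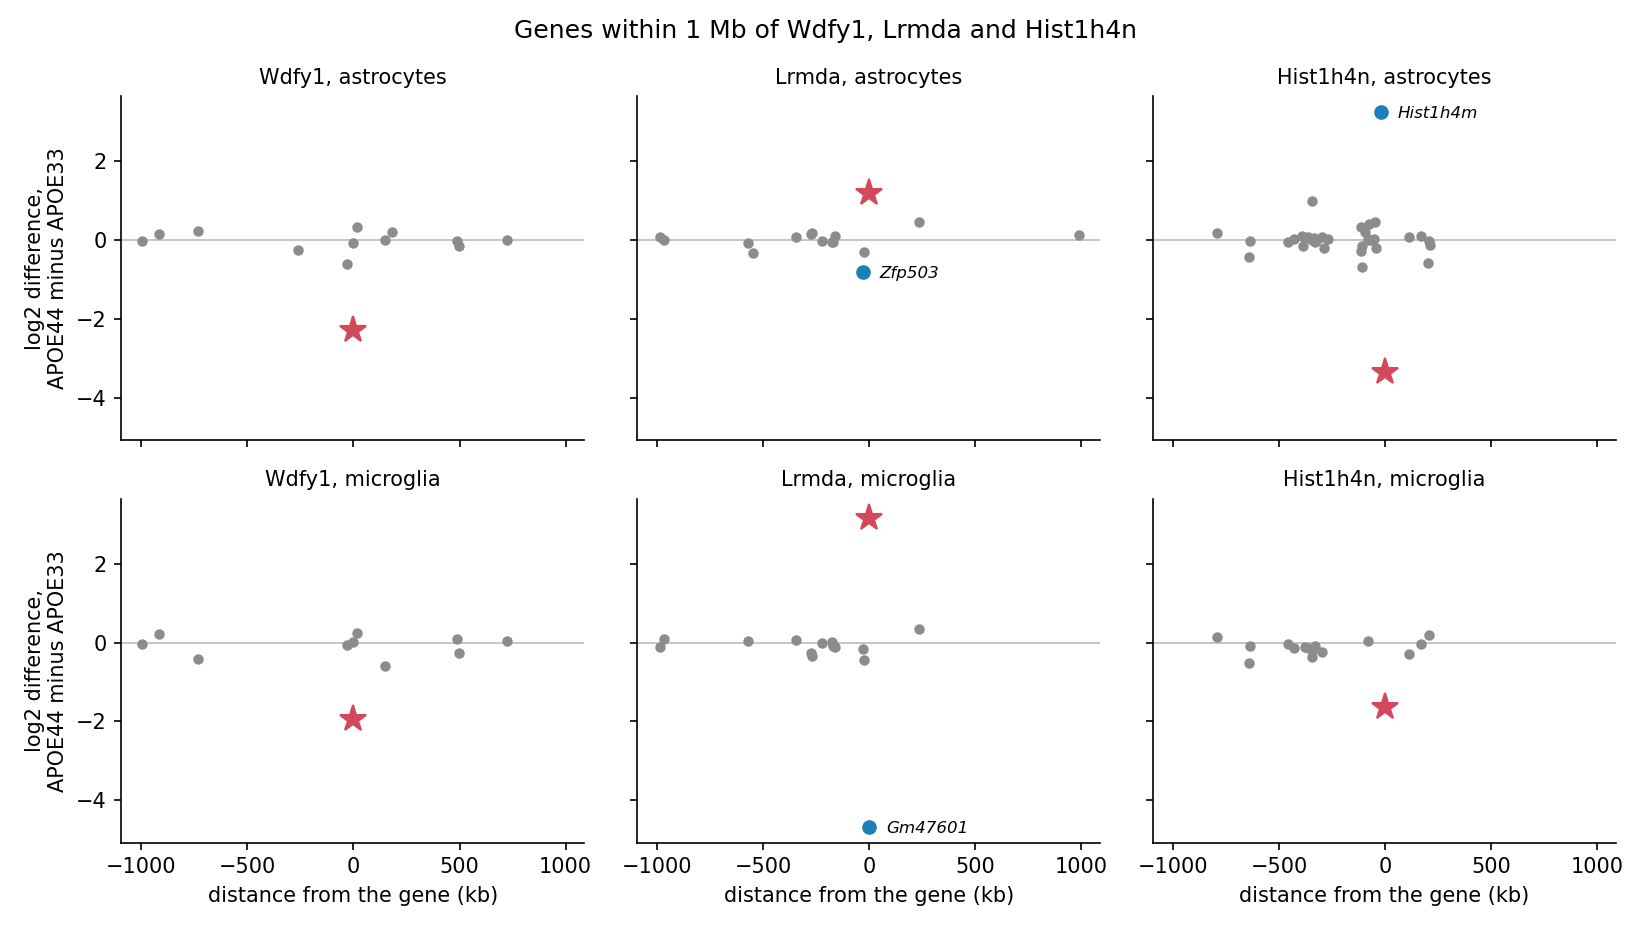
Log2 difference between APOE44 and APOE33 (vertical axis) against distance in kb (horizontal axis) for every tested gene within 1 Mb of each of the 3 genes, astrocytes above and microglia below. Stars are the 3 genes themselves, blue points are neighbours with an adjusted p under 0.05 (Hist1h4m at 3.25, Zfp503 at -0.81 and Gm47601 at -4.68), and grey points are the others.

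Other genes of the Wdfy1 pathway were counted beside the share of all genes called by edgeR. For APOE44 against APOE33 it was 0.703% in astrocytes and 0.84% in microglia, so that 0 calls in lists this short is near the background. Of a list of 30 FYVE domain and endosomal phosphoinositide genes, 29 were tested, and edgeR called 0 in astrocytes (0 at an unadjusted p under 0.05, 0 by DESeq2) and 0 in microglia (3 unadjusted, 1 by DESeq2). Their median log2 difference was 0.025 in astrocytes and -0.0021 in microglia, against -0.00056 and -0.0041 over all genes. Of 17 genes of TLR3 and TLR4 signalling through TRIF, 16 were tested, and edgeR called 0 in astrocytes (0 unadjusted, 0 by DESeq2) and 0 in microglia (5 unadjusted, 0 by DESeq2). These unadjusted counts have no share of all genes beside them, so nothing is read from them. KO against APOE33 called 2 higher and 3 lower FYVE list genes in astrocytes, among them Zfyve21 (log2 -0.30, SE 0.059, edgeR adjusted p = 0.0034) and Rab5c, a GTPase of early endosomes (log2 -0.23, SE 0.047, adjusted p = 0.00403). In microglia it called 4 higher and 5 lower, among them Pik3c3, the kinase that makes phosphatidylinositol 3-phosphate (log2 -0.26, SE 0.041, edgeR adjusted p = 0.000288), and Zfyve1 (log2 -0.25, SE 0.039, adjusted p = 0.0004). Of the TRIF list, KO astrocytes called 1 gene, Ly96, the TLR4 co-receptor (log2 0.72, SE 0.21, edgeR adjusted p = 0.026). That count was 0 with the replicate number as a block and without KO replicate 1 or KO replicate 2, and 2 or 3 by DESeq2, with counts divided by 2, with no sex term and without APOE33 replicate 2, 4, 5 or 6. KO microglia called 1 higher, the kinase gene Ikbke (log2 0.76, SE 0.11, edgeR adjusted p = 0.000299), and 3 lower, among them Nfkbia, the NF-kappaB inhibitor (log2 -0.52, SE 0.055, adjusted p = 1.33e-05). These shares stand beside 17.2% and 22.7% of all genes called in the same comparisons.

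Lrmda was a microglial transcript with an upward step. In microglia, WT libraries ran from 1.40 to 1.91 CPM (median 1.64) and APOE33 libraries from 1.33 to 2.14 CPM (median 1.93). APOE44 microglia ran from 15.5 to 17.1 CPM (median 16.1), and the KO libraries gave 19.9, 19.7, 19.7 and 18.8 CPM. WT and APOE33 overlap each other, and every APOE44 and KO library is above every one of theirs. In raw terms a WT or APOE33 microglia library held 132 to 206 Lrmda counts and an APOE44 or KO library 1501 to 2048. Per kilobase of exon the WT microglia level was 0.608 CPM, below Wdfy1 at 8.53, and the KO level of 7.20 was above the Wdfy1 KO level of 1.95.

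Against WT microglia, Lrmda was 9.78-fold higher in APOE44 (log2 3.29, SE 0.090, edgeR adjusted p = 7.55e-17) and 12.6-fold higher in KO (log2 3.66, SE 0.096, adjusted p = 3.46e-17). It had the second smallest p of all genes in each, after Wdfy1, but the APOE44 and KO libraries had also served to choose both genes. APOE33 was not called different from WT (log2 0.12, 95% interval -0.064 to 0.309, edgeR adjusted p = 0.284; 44.8% of all genes called). Without APOE33 replicate 6, the lowest library of its group at 1.33 CPM, that difference was 0.22 with an adjusted p of 0.0281. The differences that chose the gene were 3.16 for APOE44 and 3.53 for KO against APOE33, and KO stood 0.37 above APOE44 with no overlap of libraries. Markers of melanocytes were no higher where Lrmda was high: 5 of them summed to 0.349 to 0.793 CPM in APOE33 microglia and to 0.268 to 0.587 CPM in APOE44 microglia, and Tyr and Tyrp1 were at 0 in every library of both groups. In KO microglia the sum was 0.291 to 0.347 CPM with Tyr, Tyrp1 and Dct at 0, and in WT microglia it was 1.25 to 2.88 CPM. Border macrophage and monocyte markers, 5 genes, summed to 109 to 196 CPM in APOE33, 87.6 to 218 CPM in APOE44 and 266 to 391 CPM in KO microglia, and their part in the KO level was not tested. Ly6c2 of that list was at 0 in WT and APOE33 microglia.

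In astrocytes Lrmda was near the limit of counting. WT astrocytes ran from 0.106 to 0.277 CPM (median 0.248), APOE33 from 0.0206 to 0.161 (median 0.103) and APOE44 from 0.0534 to 0.503 (median 0.206). The KO libraries gave 0.305, 0.391, 0.371 and 0.454 CPM. These values rest on 2 to 72 counts a library, and the WT, APOE33 and APOE44 ranges overlap. Against APOE33 the log2 difference was 1.19 for APOE44, or 0.66 without APOE44 replicate 6, its highest library, and 1.88 for KO. Against WT, the log2 difference was 0.067 in APOE44 (SE 0.38, edgeR adjusted p = 0.907) and 0.73 in KO (SE 0.42, adjusted p = 0.179). For APOE33 it was -1.11 (SE 0.41, edgeR adjusted p = 0.0373), where 39% of all genes were called. That call was lost with the replicate number as a block (adjusted p = 0.0689) and without any of 8 single libraries (APOE33 replicates 1, 5 and 6, and WT replicates 1, 2, 4, 5 and 6), with adjusted p-values from 0.0506 to 0.0851.

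Microglia markers were detected in all astrocyte cultures. The summed level of 8 microglia markers in astrocyte libraries was 0.690% to 2.74% of their level in microglia of the same genotype, and none of the 8 was at 0. Lrmda in KO astrocytes was 1.56% to 2.32% of its level in KO microglia, where the markers were at 1.44% to 2.58%. In APOE44 astrocytes Lrmda was at 0.331% to 3.12% and the markers at 0.690% to 2.09%. In WT and APOE33 astrocytes Lrmda was at 6.43% to 16.8% and 1.13% to 8.83%, and the markers at 1.16% to 2.74% and 0.770% to 2.23%. Within groups the libraries did not always order alike: WT replicate 3 had the highest marker sum of WT astrocytes (221 CPM) and the lowest Lrmda (0.106 CPM), while APOE44 replicate 6 had the highest of both in its group (228 and 0.503 CPM). The part of these markers in the astrocyte values was not tested.

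**Figure D3:**
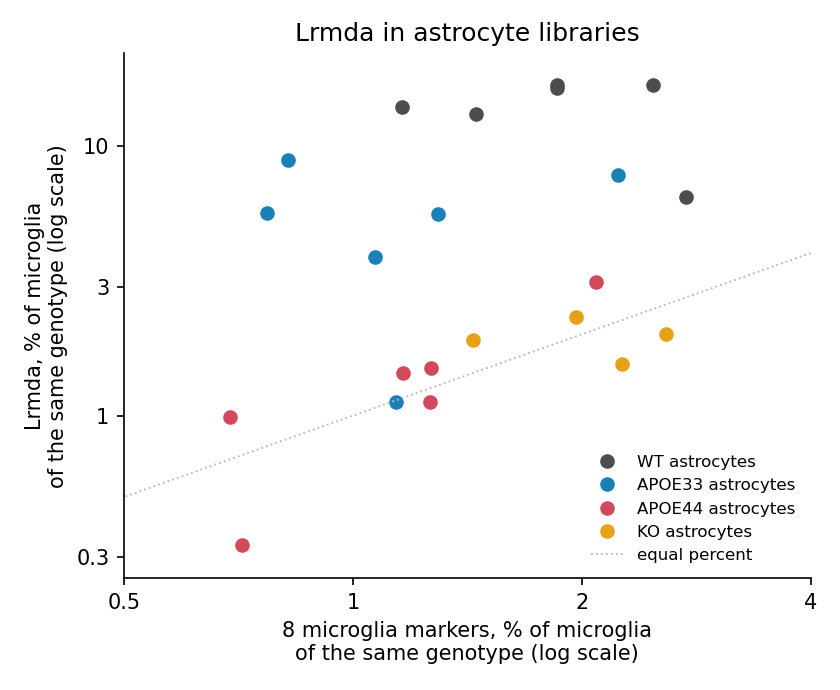
Each point is 1 astrocyte library: the summed level of 8 microglia markers (horizontal) and of Lrmda (vertical), both as a percent of the mean in microglia of the same genotype, on log axes, with a dotted line where the percents are equal. The 4 KO libraries lie at 1.44% to 2.58% and 1.56% to 2.32%, near the line, and the 6 WT libraries lie above it.

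The step of Lrmda differed between the cell types. Microglia exceeded astrocytes 11.4-fold in WT (log2 3.51, SE 0.28, edgeR adjusted p = 2.19e-14), 26.1-fold in APOE33 (log2 4.70, SE 0.29, adjusted p = 3.66e-18), 102-fold in APOE44 (log2 6.67, SE 0.29, adjusted p = 4.49e-23) and 84.0-fold in KO (log2 6.39, SE 0.36, adjusted p = 6.07e-19). The difference of the steps from WT, microglia minus astrocytes, was 3.16 for APOE44 (SE 0.35, edgeR adjusted p = 7.41e-09), 2.88 for KO (SE 0.38, adjusted p = 3.06e-07) and 1.20 for APOE33 (SE 0.38, adjusted p = 0.0163). Each was called in all other fits run. The astrocyte side rests on the low counts above, and the part of microglial RNA in the astrocyte libraries was not tested.

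A second transcript inside Lrmda went the opposite way. Gm47601 (ENSMUSG00000114496.1), annotated as sense intronic, lies on the same strand at 22927926 to 22933500, which is 908 kb from the Lrmda start and between exons 6 and 7 of the 7-exon transcript, and it overlaps no Lrmda exon. Of the 7 annotated Lrmda transcripts, 2 hold the exon that follows Gm47601. In microglia it stood at 2.00 ± 0.190 CPM in WT and 2.15 ± 0.231 CPM in APOE33 (SD, n = 6 each), with 162 to 267 counts a library. In APOE44 the highest library held 18 counts, and the KO libraries held 3, 10, 0 and 16. The log2 difference from APOE33 was -4.68 for APOE44 (SE 0.60, edgeR adjusted p = 0.000714) and -5.00 for KO (SE 0.75, adjusted p = 0.000316), and APOE33 differed from WT by 0.13 (SE 0.37, adjusted p = 0.809). For each Lrmda count there were 1.21 Gm47601 counts in WT and 1.20 in APOE33 microglia, and 0.0054 in APOE44 and 0.0036 in KO. In astrocytes, on few counts, the same ratio was 0.391 and 0.379 in WT and APOE33, and 0.025 and 0.012 in APOE44 and KO. On the other strand the annotation places 6 antisense, pseudogene and microRNA genes within or across the ends of Lrmda, with 0 to 90 counts each over all 44 libraries, beside 20812 for Lrmda.

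**Figure D4:**
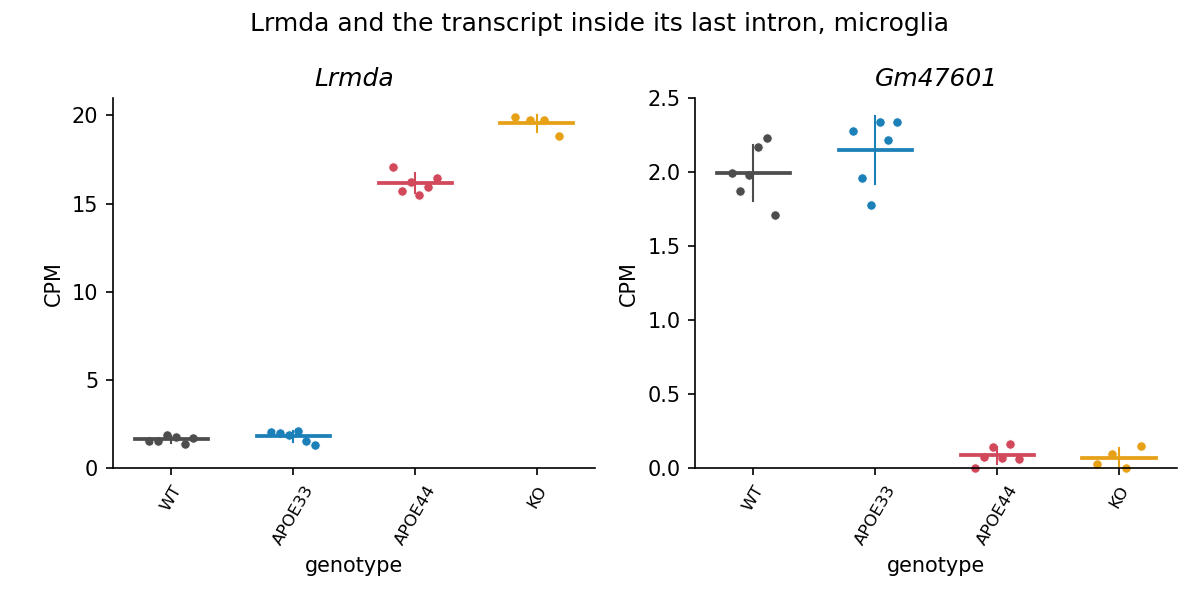
CPM in microglia of Lrmda (left) and of Gm47601, which lies in the last intron of the 7-exon Lrmda transcript (right), with 1 point per library, the group mean and ± 1 SD (n = 6, KO n = 4). Lrmda is between 15.5 and 19.9 CPM in APOE44 and KO, where Gm47601 has at most 18 counts in a library.

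Of the genes around Lrmda, Zfp503 also changed between APOE33 and APOE44. Zfp503, a zinc finger protein gene 30.1 kb before the start of Lrmda, was at 34.1 ± 2.24 CPM in WT, 27.1 ± 4.08 CPM in APOE33, 15.7 ± 1.42 CPM in APOE44 (SD, n = 6 each) and 11.5 ± 0.516 CPM in KO astrocytes (n = 4). The log2 difference from APOE33 was -0.81 for APOE44 (SE 0.091, edgeR adjusted p = 8.48e-05) and -1.30 for KO (SE 0.11, adjusted p = 5.24e-06). In microglia, where Lrmda is expressed, APOE44 differed by -0.16 (SE 0.10, edgeR adjusted p = 0.577) and KO by -0.40 (SE 0.12, adjusted p = 0.025). Kcnma1, a potassium channel gene 233 kb beyond the end of Lrmda, fell in KO microglia (log2 -1.87, SE 0.39, edgeR adjusted p = 0.0035) and differed by 0.35 in APOE44 microglia (SE 0.32, adjusted p = 0.71). Within 1 Mb of Lrmda, 1 of 15 tested genes was called in APOE44 against APOE33 astrocytes (Zfp503) and 1 of 14 in microglia (Gm47601), 6.67% and 7.14% beside 0.703% and 0.84% of all genes. In KO against APOE33 it was 2 of 15 in astrocytes (13.3%, beside 17.2%; 4 by DESeq2) and 8 of 14 in microglia (57.1%, beside 22.7%; 8 by DESeq2), 4 higher and 4 lower. C130012C08Rik, the nearest tested gene before Lrmda, differed by -0.44 in APOE44 microglia (SE 0.33, adjusted p = 0.638). The APOE44 shares within 1 Mb are 1 gene each, and Gm47601 lies inside Lrmda. Within 5 Mb of Lrmda, APOE44 against APOE33 called 1 of 87 in astrocytes (1.15%) and 1 of 73 in microglia (1.37%). KO against APOE33 called 8 of 87 (9.2%) and 20 of 73 (27.4%), beside 17.2% and 22.7% of all genes.

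Genes of melanosome transport, the setting Lrmda is known from, gave 1 call in APOE44. Of 42 melanosome, Rab32 and Rab38 trafficking and Commander complex genes, 35 were tested in astrocytes and 34 in microglia. APOE44 against APOE33 called 1 in astrocytes, Rab32, a GTPase of melanosome transport (log2 -0.26, SE 0.055, edgeR adjusted p = 0.0418), and 0 in microglia (3 at an unadjusted p under 0.05, 1 by DESeq2). The astrocyte call was lost with the replicate number as a block, with no filter on low counts and without any 1 library other than APOE33 replicate 6. Over all genes edgeR called 0.703% and 0.84%. KO against APOE33 called 4 higher and 2 lower of 35 in astrocytes, near the 17.2% of all genes, with Hps3 at 0.34 (SE 0.058, edgeR adjusted p = 0.00162) and Rab27a at 0.95 (SE 0.22, adjusted p = 0.00924). In microglia it called 9 higher and 3 lower of 34, where 22.7% of all genes were called, with the Commander genes Commd9 at -0.32 (SE 0.040, edgeR adjusted p = 5.29e-05) and Commd6 at 0.39 (SE 0.054, adjusted p = 0.000132). The list's median in microglia was -0.012 for APOE44 and 0.013 for KO, against -0.0041 and -0.020 over all genes.

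Hist1h4n was an astrocyte transcript with a downward step, and its near-identical neighbour Hist1h4m had the reverse step. The copies lie 19.6 kb apart on opposite strands, and Hist1h4m is at 21811746 to 21812147. Their coding sequences of 309 bases have 0 differences, and over the 402 bases that their transcripts share there is 1 substitution, A36G (Hist1h4n base first, positions counted from 1 at the first transcript base), just ahead of the start codon. The windows of 30 bases around it, from the GENCODE M21 transcripts, show how little separates the copies, with the differing base in capitals.
Hist1h4n bases: acagttttgtcttcAtcatgtctggtcgtg
Hist1h4m bases: acagttttgtcttcGtcatgtctggtcgtg
The promoter window of Hist1h4m (H4c17) differs from the one printed above at 1 of 299 aligned bases and holds the same TATAAA. Both windows run into the transcript, and the differing base is the same A36G substitution, not a second difference. The other 11 histone H4 copies compared differ from Hist1h4n at 10 to 42 coding bases. Whether reads that map to more than 1 place were counted is not given in the sources used here, so the split of counts between this pair is uncertain.

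In astrocytes Hist1h4n ran from 1.77 to 2.23 CPM in WT (median 2.06) and from 1.35 to 3.28 CPM in APOE33 (median 1.95). It ran from 0.121 to 0.253 CPM in APOE44 (median 0.204), and the KO libraries gave 0.242, 0.121, 0.164 and 0.120 CPM. The high pair and the low pair of groups do not overlap, and the low libraries hold 13 to 28 counts. Hist1h4m ran from 0.343 to 0.469 CPM in WT and from 0.189 to 0.434 CPM in APOE33, but from 1.67 to 4.05 CPM in APOE44, and the KO libraries gave 4.57, 2.13, 2.52 and 1.58 CPM. Hist1h4n made up 83.4% ± 1.55 of the counts of the pair in WT and 86.7% ± 4.25 in APOE33 (SD, n = 6 each), against 7.06% ± 1.96 in APOE44 (n = 6) and 5.90% ± 0.898 in KO (n = 4).

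**Figure D5:**
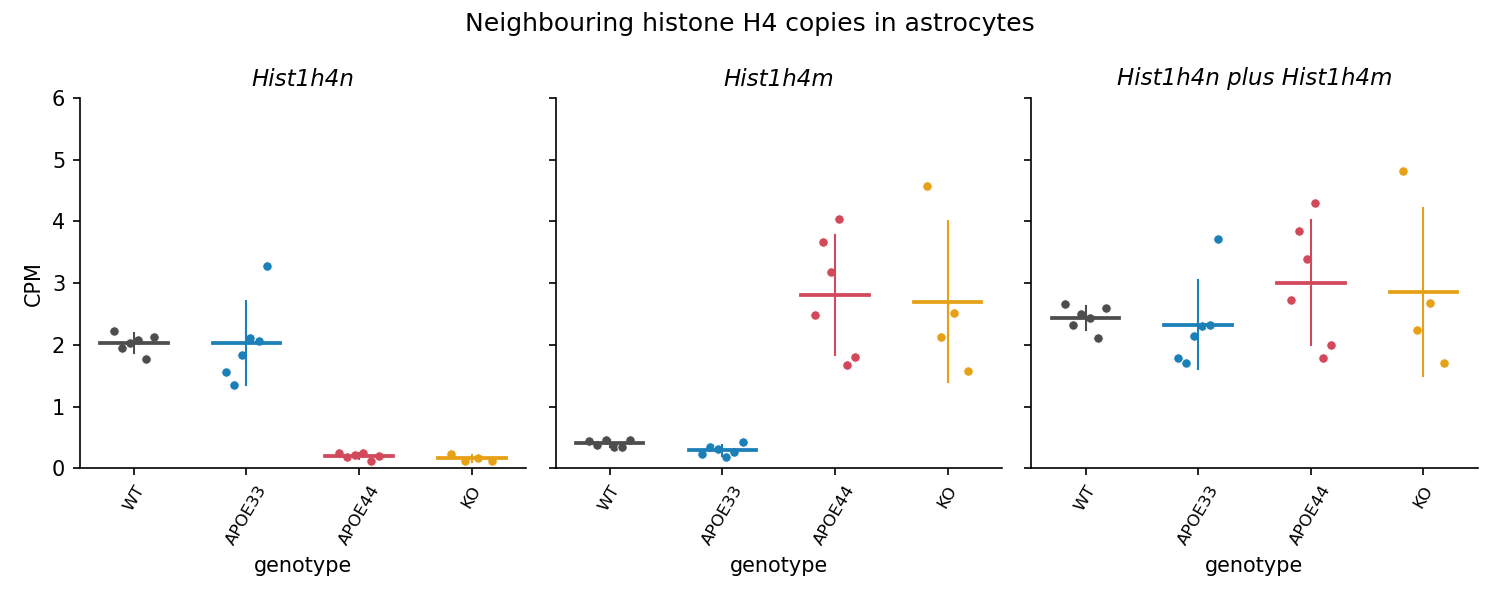
CPM in astrocytes of Hist1h4n, of Hist1h4m and of their sum by genotype, with 1 point per library, the group mean and ± 1 SD (n = 6, KO n = 4). The 2 copies trade places between WT or APOE33 and APOE44 or KO, and the sum ranges from 1.70 to 4.81 CPM with all 4 groups overlapping.

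The differences that chose Hist1h4n were -3.34 for APOE44 and -3.68 for KO against APOE33, on the log2 scale, with KO -0.34 from APOE44 and their libraries overlapping. Against WT astrocytes, Hist1h4n was lower by 9.83-fold in APOE44 (log2 -3.30, SE 0.22, edgeR adjusted p = 4.32e-10) and by 12.3-fold in KO (log2 -3.62, SE 0.27, adjusted p = 4.15e-09). APOE33 was not called different from WT (log2 0.044, 95% interval -0.353 to 0.441, edgeR adjusted p = 0.88). Hist1h4m was higher than in WT by 2.81 in APOE44 (SE 0.26, edgeR adjusted p = 4e-08) and by 2.77 in KO (SE 0.28, adjusted p = 1.86e-07). Against APOE33 the differences were 3.25 in APOE44 (SE 0.30, edgeR adjusted p = 9.09e-06) and 3.22 in KO (SE 0.32, edgeR adjusted p = 3.79e-05). Hist1h4n was chosen in these same APOE44 and KO libraries, and the split of counts between the copies is uncertain. The Hist1h4m p-values are therefore not independent of the choice. For the sum of both copies no difference from WT was called in astrocytes. It averaged 2.44 ± 0.199 CPM in WT, 2.33 ± 0.727 in APOE33, 3.01 ± 1.01 in APOE44 and 2.86 ± 1.36 in KO. Against WT the sum differed by 0.33 in APOE44 (95% interval -0.17 to 0.84, edgeR adjusted p = 0.281) and by 0.27 in KO (-0.29 to 0.83, adjusted p = 0.457), with the copies counted as 1 feature. For APOE33 the sum differed from WT by -0.035 (-0.54 to 0.47, adjusted p = 0.927).

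In microglia Hist1h4n had 1 to 26 counts a library. WT ran from 0.0974 to 0.274 CPM (median 0.197), APOE33 from 0.0290 to 0.165 (median 0.111) and APOE44 from 0.0190 to 0.0486 (median 0.0316). The KO libraries gave 0.0102, 0.0202, 0.0481 and 0.0375 CPM. WT lies above APOE44 and KO, while APOE33 overlaps all of the other 3 groups. Libraries of APOE44 and KO held 1 to 5 counts, so Hist1h4n passed the low-count filter only through WT and APOE33. They also served to choose the gene, so nothing is read from their p-values for Hist1h4n against WT. The log2 difference from WT was -2.54 in APOE44 (SE 0.44, edgeR adjusted p = 8.16e-05), -2.56 in KO (SE 0.53, adjusted p = 0.000507) and -0.86 in APOE33 (SE 0.41, adjusted p = 0.0953). For the sum of both copies the differences were -0.91 (SE 0.40, edgeR adjusted p = 0.0698), -1.94 (SE 0.50, adjusted p = 0.00346) and -0.95 (SE 0.41, adjusted p = 0.0636), on 3 to 27 counts a library. Microglia were below astrocytes for Hist1h4n in all 4 genotypes, by 7.23-fold in WT (log2 -2.85, SE 0.32, edgeR adjusted p = 2.4e-10), 13.7-fold in APOE33 (log2 -3.77, SE 0.31, adjusted p = 2.41e-14), 4.39-fold in APOE44 (log2 -2.13, SE 0.40, adjusted p = 6.71e-06) and 3.56-fold in KO (log2 -1.83, SE 0.53, adjusted p = 0.00201). With both copies as 1 feature the log2 differences were -2.93 in WT (SE 0.35, edgeR adjusted p = 9.77e-10), -3.85 in APOE33 (SE 0.34, adjusted p = 2.8e-13), -4.19 in APOE44 (SE 0.36, adjusted p = 1.12e-13) and -5.17 in KO (SE 0.50, adjusted p = 6.25e-12), so that APOE44 and KO had the greatest differences and not the smallest.

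Other histone H4 genes and genes of the S phase were counted beside the same 0.703% and 0.84% of all genes called by edgeR, a background that gives few calls in lists this short. Of 12 other H4 copies, 10 were tested in astrocytes. There APOE44 against APOE33 called only Hist1h4m by edgeR (1 call by DESeq2), a call not independent of the choice of Hist1h4n. In microglia 4 were tested and edgeR called 0 (0 at an unadjusted p under 0.05, 0 by DESeq2). Hist1h4k and Hist1h4i, 81.3 and 208 kb away, were not called in astrocytes: Hist1h4k differed by 0.027 (SE 0.15, edgeR adjusted p = 0.981) and Hist1h4i by -0.018 (SE 0.11, adjusted p = 0.982). KO against APOE33 called 2 higher, Hist1h4m among them, and 1 lower of the 10 in astrocytes, beside 17.2% of all genes. The lower one was Hist1h4a (log2 -0.87, SE 0.26, edgeR adjusted p = 0.0298). The count was 1 with the replicate block and without APOE33 replicate 3 or KO replicate 4. Of 21 genes of histone mRNA processing and S phase, all tested, APOE44 called 0 in astrocytes (0 unadjusted, 0 by DESeq2) and 0 in microglia (2 unadjusted, 0 by DESeq2). KO called 2 of 21 in astrocytes, both lower and beside 17.2% of all genes, the replication helicase gene Mcm6 (log2 -0.42, SE 0.088, edgeR adjusted p = 0.00482) and Lsm10 (log2 -0.20, SE 0.062, adjusted p = 0.0334). In KO microglia it called 1 higher and 4 lower, beside 22.7%, among them Casp8ap2 (log2 -0.41, SE 0.064, edgeR adjusted p = 0.000295) and Mcm6 (log2 -0.30, SE 0.069, adjusted p = 0.00456). Within 1 Mb of Hist1h4n, APOE44 called 1 of 35 tested genes in astrocytes, again Hist1h4m (2 by DESeq2), and 0 of 15 in microglia (4 unadjusted, 0 by DESeq2). KO called 3 of 35 (8.57%, beside 17.2%; 4 by DESeq2) and 2 of 15 (13.3%, beside 22.7%; 4 by DESeq2). In KO astrocytes the other calls were the histone genes Hist1h2bn (log2 0.46, SE 0.14, edgeR adjusted p = 0.0297) and Hist1h1b (log2 0.47, SE 0.14, adjusted p = 0.0261). Zfp184, the nearest tested gene on the other side, differed by 0.091 in APOE44 astrocytes (SE 0.12, edgeR adjusted p = 0.861).

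Sex made no called difference for the 3 genes. Male minus female was -0.018 for Wdfy1 in astrocytes and 0.0053 in microglia (SE 0.028 and 0.030), 0.126 and -0.098 for Lrmda (SE 0.30 and 0.065), and 0.022 and -0.056 for Hist1h4n (SE 0.16 and 0.34). The unadjusted p-values ran from 0.148 upward and DESeq2 called none of the 6 either, where edgeR called 0.0752% of genes in astrocytes and 0.0664% in microglia.

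Ordered by mean CPM, Wdfy1 went from WT and APOE33 astrocytes (overlapping) to APOE33 and WT microglia (overlapping), then KO astrocytes, then APOE44 astrocytes and APOE44 microglia (overlapping), then KO microglia. For Lrmda the order was KO, then APOE44 microglia, then APOE33 and WT microglia (overlapping), then KO astrocytes, then the other 3 astrocyte groups, each overlapping the next. For Hist1h4n only the gap between APOE33 and APOE44 astrocytes separated neighbouring groups. Likeness of pattern was measured as the mean absolute difference of log2 group-mean CPM over the 8 groups, centred within each cell type, among 10388 genes with a mean of at least 1 CPM in each cell type. The gene most like Hist1h4n was Wdfy1, at 0.459, where a flat gene would score 1.43, but both were chosen for this pattern, so their likeness restates the choice. For Wdfy1 the most alike were mt-Co2 (0.640), Pnp2 (0.648) and Dynlt1b (0.649), where a flat gene would score 1.06. These do not have its step, since APOE33 lies with APOE44: mt-Co2 was at 17.3, 7.59, 6.96 and 4.47 CPM in WT, APOE33, APOE44 and KO astrocytes, and Dynlt1b at 5.48, 3.60, 3.70 and 1.03 CPM. For Lrmda they were Lgi4 (0.546), F13a1 (0.619) and Cd93 (0.677), where a flat gene would score 1.11. Lgi4 held 0.324 and 0.320 CPM in WT and APOE33 microglia, and 2.65 and 1.43 CPM in APOE44 and KO microglia, so it reached the 1 CPM mean in microglia only through the groups where it is high.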

How the data were processed

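The authors deposited 1 table of raw read counts per gene. Per the submitters' processing notes the tools were STAR 2.5.3a, featureCounts, edgeR 3.26.8 and DESeq2 3.14, and the build named is hg38, although the identifiers are mouse Ensembl genes. The mouse build is not given in the sources used here, nor are the strand setting and the handling of multi-mapping reads. GENCODE M21 (GRCm38) held 54079 of the 54146 identifiers and gave symbols and positions. Per the labels' protocols, total RNA was sequenced as paired reads of 150 bases. Among counts of 1 to 9, 62.4% to 78.7% were even.

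From the counts, edgeR 4.0.16 in R 4.3.3 (filterByExpr, TMM, quasi-likelihood test with robust dispersion, Benjamini-Hochberg over all genes tested, threshold 0.05) was run with sex as a covariate: 16 batch 1 libraries per cell type for comparisons among edited mice, 22 for those with WT, 44 for those between cell types. The scripts were tested on simulated counts. Of 102 replicate pairs, 0 were identical. One APOE33 astrocyte library (replicate 1) has a genotype tag of WT but an APOE33 title and source, and was kept in APOE33. Its mouse Apoe level was 24.4 CPM, as in the edited mice, where WT astrocytes ran from 6104 to 7759 CPM. Alternatives were DESeq2 1.42.0 (test, or size factors), no low-count filter, no sex term, a replicate block, counts divided by 2, only the groups compared, each library left out, and, chosen after seeing the data, library totals as the scaling and the H4 pair as 1 feature. Named genes were the 3 members, Apoe, the nearest tested gene on each side, up to 4 called neighbours within 1 Mb, up to 2 called genes per list and comparison, and the most alike in pattern. The members, lists and markers were chosen with earlier results of these data known.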

Additional observations from a re-analysis of the deposited data

Results flagged for a closer look

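Of the 24 combinations of gene and group, 2 had a library far from the rest of its group, where chance gives about 1 in 20. APOE33 astrocyte replicate 2 had 80.7 CPM of Wdfy1, and the other 5 libraries ran from 70.5 to 73.8. WT astrocyte replicate 3 had 0.106 CPM of Lrmda, on 11 counts, and the other 5 ran from 0.217 to 0.277.

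The step from WT differed between microglia and astrocytes by a test of the difference itself in 4 cases. For Wdfy1 it was 0.35 on the log2 scale in APOE44 (edgeR adjusted p = 1.73e-06). For Lrmda it was 3.16 in APOE44 (adjusted p = 7.41e-09), 2.88 in KO (adjusted p = 3.06e-07) and 1.20 in APOE33 (adjusted p = 0.0163).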

How the results depend on the processing

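Of 1031 refits of a tested difference of the 3 genes, 954 kept their direction and side of the threshold. The Wdfy1 and Lrmda calls against WT in APOE44 and KO (Lrmda in microglia) were kept in every alternative, with log2 ranges of -2.34 to -2.28 and -2.06 to -2.03 (Wdfy1, astrocytes), -1.93 to -1.88 and -2.13 to -2.03 (Wdfy1, microglia), and 3.25 to 3.33 and 3.59 to 3.70 (Lrmda). WT shares its batch tag with no other group, and the low counts of Hist1h4n in microglia and Lrmda in astrocytes limit those values.

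With Hist1h4n and Hist1h4m as 1 feature, the Hist1h4n differences changed sign: to 0.37 and 0.30 for APOE44 and KO against APOE33 astrocytes, 0.090 for APOE44 against APOE33 microglia, 0.33 and 0.27 against WT astrocytes, and -0.035 for APOE33. APOE44 against WT microglia weakened to -0.91 (adjusted p = 0.0698), male minus female in astrocytes became -0.167, and the differences of steps became -1.26 (adjusted p = 0.0263) and -2.24 (adjusted p = 0.00177) for APOE44 and KO. For APOE44 and KO astrocytes this follows from the construction, since Hist1h4m moved the opposite way there. The changes of sign for APOE33 against WT astrocytes and for sex were between values that were not called.

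Wdfy1 between the cell types turned on the scaling. With DESeq2 size factors it was -0.036 in WT, -0.0081 in APOE33 and -0.048 in KO, by the DESeq2 test -0.037, -0.0089 and -0.050, and by library totals -0.48, -0.40, -0.045 (APOE44) and -0.54. With no sex term it was called at 0.093 in WT and 0.087 in APOE33, and with counts divided by 2 at 0.095 and 0.088. In KO it was -0.0051 with no filter and -0.013 with only the groups compared. Its uncalled difference of steps for APOE33 became 0.028 with DESeq2 size factors, 0.028 by DESeq2, 0.077 by library totals and 0.014 with no filter, and that for KO 0.060 with only the groups compared. APOE33 minus WT in astrocytes became 0.010 with only the groups compared, and male minus female in microglia -0.00069 by library totals. The cause was not tested.

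Same-numbered microglia and astrocyte libraries of a genotype had the same sex throughout, so they may come from shared animals. The labels do not state this. Correlations of same-numbered deviations ran from -0.614 to 0.397 over the pairs of groups. Between microglia and astrocytes of a genotype they ran from -0.142 (APOE33) to 0.235 (APOE44). These correlations cannot show whether the numbers pair the samples, and the main tests treated the libraries as unpaired. With the replicate block, Lrmda in APOE33 against WT astrocytes was -1.09 (adjusted p = 0.0689) and in APOE44 -0.025, and no other tested call of the 3 genes changed. Genes called under the block fell to 70 and 51 in APOE44 against APOE33 astrocytes and microglia (main 144 and 144) and to 1892 in KO against APOE33 astrocytes (main 3522). By DESeq2 the counts were 315 and 385 for APOE44 against APOE33, and 35 and 31 for sex (main 16 and 12).

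Leaving out each library gave 85 to 126 and 81 to 191 calls in APOE44 against APOE33 astrocytes and microglia (fewest without APOE44 replicate 5 and APOE44 replicate 4), and 1836 to 3688 in KO against APOE33 astrocytes (fewest without KO replicate 1). For Lrmda, APOE33 against WT gave -1.32 to -0.92 (astrocytes) and 0.077 to 0.22 (microglia, called without APOE33 replicate 6), and APOE44 against WT astrocytes gave -0.40 (without APOE44 replicate 6) to 0.26. Hist1h4n ran from -0.19 to 0.14 in APOE33 against WT astrocytes, from -0.16 to 0.13 and from -0.20 to 0.15 for sex, and from -1.09 to -0.66 for the APOE33 difference of steps, called without any of 4 libraries. Wdfy1 ran from -0.023 to 0.0020 in APOE33 against WT astrocytes, -0.0030 to 0.020 for sex in microglia, -0.013 to 0.012 for the APOE33 difference of steps, 0.064 to 0.092 for microglia minus astrocytes in APOE33 and -0.015 to 0.038 in KO. Of 1100 refitted counts of neighbours and list genes, 160 moved by over 1.5 times. Hist1h4n in microglia gave no value with counts divided by 2, as it missed the low-count filter.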
